A study of Homo sapiens with 15 samples.

Results

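The HOX genes are the homeobox transcription factor genes that lie in 4 clusters, HOXA, HOXB, HOXC and HOXD. The 39 genes with a HOX cluster letter and a paralog number in their symbol were taken from the 43388 genes counted, and antisense genes of the clusters were not members. HOXA held 11 of them, HOXB 10, HOXC 9 and HOXD 9. A549, the cell line of all libraries, is a human lung adenocarcinoma line with features of alveolar epithelium. It was pretreated for 24 h with all-trans retinoic acid (ATRA; the labels give 1e-05 mM) or with its ethanol vehicle, or it received neither (no vehicle). All groups were kept for 72 h in hyperoxia (95% O2) or normoxia (21% O2). ATRA, ethanol and no vehicle are called the 3 pretreatments below, though no pretreatment time is given for the libraries with no vehicle. The groups with ATRA had 3 libraries each and the 4 groups with ethanol or no vehicle had 2 libraries each, which gave 14 libraries. All came from the same wild type line, and the labels do not say whether libraries of a group came from separate cultures, so p-values measure only the spread between these libraries. The study asked how retinoic acid changes the response of lung epithelial cells to hyperoxia.

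HOX proteins bind DNA, mostly with TALE cofactors of the PBX, MEIS and PKNOX families, and set position along the body axis. Genes of a cluster are numbered by paralog group, and low numbers act towards the head and high numbers towards the tail. Retinoic acid is a classical inducer of HOX genes, acting through receptors that bind repeats of a short DNA half-site, and Polycomb and Trithorax proteins hold the clusters silent or active. Many HOX genes stay active in adult lung epithelium and in carcinoma lines.

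Libraries held 2642377 to 5605072 counts, and HOX genes took 0.0209% to 0.0346% of them. A count of 3 stood for 0.535 to 1.14 CPM (counts per library total, TMM scaled for the values by gene), so low members were near the limit of detection. The first hyperoxia library with no vehicle had 12657 genes with a count, against 16465 to 20108 in the other 13 libraries, and 19 of the 39 HOX genes had a count in it. Its genes with a count had a median of 146 counts, and the first library of hyperoxia with ATRA had a median of 101, where the other 12 libraries had medians of 44 to 63. The oxygen values of members called in hyperoxia averaged over pretreatments are given with both libraries and without them, a setting chosen after seeing the data. Epithelial marker genes summed to 3317 to 11879 CPM, and 5 of their 6 genes (KRT8, KRT18, KRT19, CDH1 and EPCAM) fell in hyperoxia averaged over pretreatments, while 5 of 6 rose with ATRA in hyperoxia. The part of these marker changes in the HOX results was not tested. The leukocyte, endothelial and fibroblast lists reached 15.3, 6.26 and 13.2 CPM at most, with PTPRC, CD3E, VWF, DCN and LUM at 3 counts or fewer in every library. In such bulk RNA, fewer cells that express a gene and less RNA per cell cannot be told apart.

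The kit kept the strand of the RNA, but the strand setting of the counting is not given in the sources used here. TALAM1, which is read from the strand opposite MALAT1, held 1.87 to 2.01 times the counts of MALAT1 in the 14 libraries. Across 10 antisense genes that lay almost wholly inside a well counted gene, the antisense gene had a median of 1.95 times the counts per kb of its partner, and 9 of 10 were above 1. Reads of a HOX gene and of RNA from its opposite strand therefore cannot be told apart in these counts. Seen against the annotation, HOXB7, HOXB8, HOXB9, HOXB13, HOXC8 and HOXC9 overlap no other gene, whereas 74.8% of the HOXA7 transcript lies opposite an antisense transcript and HOXC5 and HOXC6 lie within the span of HOXC4, with 67.3% of the HOXC5 transcript also covered by other transcripts of its strand.

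Sequences were printed for the members that changed and for which the reference tables hold one. The RefSeq promoter table (GRCh38.p14) had windows of 300 bases for 20 of the 39 members, 26 distinct windows in all. The windows of the most distal of the HOXA3 starts, a gene that was higher with ATRA, of HOXC4 and of HOXA7, both higher in hyperoxia, are shown because these genes passed a test below. HOXC4 and HOXC5 share their window. Capitals mark 3 motifs on either strand, the half-site AGTTCA of nuclear receptors, the CCAAT box and the TATAAA box.
HOXA3, chr7:27152534-27152833, minus strand: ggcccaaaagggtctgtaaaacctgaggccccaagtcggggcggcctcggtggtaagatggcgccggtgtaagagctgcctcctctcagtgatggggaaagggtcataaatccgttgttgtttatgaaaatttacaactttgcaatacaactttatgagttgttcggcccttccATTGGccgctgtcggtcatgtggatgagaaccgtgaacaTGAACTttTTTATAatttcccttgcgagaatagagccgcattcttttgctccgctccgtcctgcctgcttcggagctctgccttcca
HOXC4, chr12:54016638-54016937, plus strand: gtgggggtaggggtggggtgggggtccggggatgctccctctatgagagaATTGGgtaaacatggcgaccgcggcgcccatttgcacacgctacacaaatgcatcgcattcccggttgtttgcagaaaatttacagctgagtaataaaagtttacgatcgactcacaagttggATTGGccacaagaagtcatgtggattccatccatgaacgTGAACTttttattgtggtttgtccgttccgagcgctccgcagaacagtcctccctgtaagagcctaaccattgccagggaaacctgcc
HOXA7, chr7:27156626-27156925, minus strand: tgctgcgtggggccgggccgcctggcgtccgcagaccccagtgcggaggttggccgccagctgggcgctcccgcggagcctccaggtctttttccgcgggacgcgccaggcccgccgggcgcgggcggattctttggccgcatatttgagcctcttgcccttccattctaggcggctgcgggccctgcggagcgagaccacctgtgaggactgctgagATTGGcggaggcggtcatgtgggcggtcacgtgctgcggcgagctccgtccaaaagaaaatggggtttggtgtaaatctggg

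The HOXA3 and HOXC4 windows were compared without gaps over a range of shifts, and the shift with the most equal bases was taken. At this shift of 1 base, 110 of 299 bases were equal (36.8%), against at most 89 bases at the other shifts. Between bases 171 and 230 of the HOXA3 window, a stretch chosen after the sequences were seen, 40 of 60 bases were equal (66.7%). That stretch holds a CCAAT box 76 bases before the HOXA3 start and 77 before the HOXC4 start, and an AGTTCA half-site 37 and 38 bases before them, both on the opposite strand. AGTTCA was in 5 of the 26 member windows and in 10.5% of the 34943 distinct windows of the table, CCAAT in 17 windows and 34.6%, and TATAAA in 5 windows and 11.6%. The half-site AGGTCA was in 0 of the member windows and in 13.8% of all windows. Both strands were searched, and none of the 4 motifs contains another.

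The clusters also hold the genes of miR-196, a microRNA known to act on HOX transcripts. Mature microRNAs were not measured. The mature sequences (RefSeq, GRCh38.p14) are shown with the seed, bases 2 to 8, in capitals, followed by 22-base stretches of HOX untranslated ends with the seed match ACTACCT in capitals. They stand for HOXA7, HOXB6 and HOXC8, which passed a test below and hold such a match.
miR-196a-5p, MIR196A1 in HOXB and MIR196A2 in HOXC: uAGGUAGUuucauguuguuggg
miR-196b-5p, MIR196B in HOXA: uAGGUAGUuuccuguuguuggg
HOXA7, chr7:27154430-27154451, minus strand: cctactcccctaaaACTACCTa
HOXB6, chr17:48595934-48595955, minus strand: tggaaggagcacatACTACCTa
HOXC8, chr12:54012231-54012252, plus strand: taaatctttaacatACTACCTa
Both microRNAs share the seed. The seed match was found in 8 of 39 members (20.5%), with 4 matches in HOXA7 and 3 in HOXC8, against 7.09% of 18780 genes. HOXB8 had no exact seed match but the closest full complement, with 21 of 22 bases paired to miR-196a-5p (capitals).
HOXB8, chr17:48612770-48612791, minus strand: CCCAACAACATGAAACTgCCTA
Among the holders of a seed match, HOXA7 and HOXC8 rose in hyperoxia averaged over pretreatments and HOXB6 fell, as described below. HOXA5, HOXA9, HOXB7 and HOXB13 were tested there and not called, and HOXB1 had 0 counts. Of all genes tested there, 31.1% were called.

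HOXB was the most strongly expressed cluster, and the leading genes per transcript length were HOXB7 at 12.1 CPM per kb ± 4.01 (SD, n = 14) and HOXB6 at 11.5 ± 6.65. Both are middle cluster genes that pattern the trunk. HOXC13, a gene of hair and nail development, followed at 9.28 ± 3.93, then HOXB9 at 9.004 ± 2.60, HOXB3 at 8.95 ± 2.87 and HOXA3 at 8.21 ± 2.45. These averages pool both oxygen levels. In the 7 normoxia libraries HOXB6 came first at 17.2 CPM per kb ± 3.45 and HOXB7 second at 12.99 ± 1.87, while in the 7 hyperoxia libraries HOXC13 came first at 12.02 ± 3.12 and HOXB7 second at 11.1 ± 5.42, with HOXB6 at 5.73 ± 2.75. The first and second genes lay within the sum of their SDs of each other in either condition. By CPM without length, HOXB3 came first and HOXA3 second.

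The HOXD cluster, known for limb and digit patterning, was the lowest, with HOXD8 its leader at 1.57 CPM per kb ± 1.04 (SD, n = 14). HOXB1, HOXC12 and HOXD12 had 0 counts in all 14 libraries, which allows up to 0.535 to 1.14 CPM per library for counting error only. HOXD1 had 3 counts or fewer in every library. HOXA11, HOXC11, HOXD3, HOXD9, HOXD10, HOXD11 and HOXD13 stayed too low for the tests, with at most 21 counts in a library. HOXA9 passed only where all 14 libraries were fitted, and its 65 counts in the first hyperoxia library with no vehicle equalled the 65 counts of the read-through transcript HOXA10-HOXA9. The genes that passed a test lie, in hg38, at chr7:27107010-27152583 (HOXA3) and chr7:27153716-27156675 (HOXA7), at chr17:48548870-48590241 (HOXB3), chr17:48595751-48604986 (HOXB6) and chr17:48612346-48615292 (HOXB8), all on the minus strand, and at chr12:53938831-53946544 (HOXC13), chr12:54008985-54012769 (HOXC8) and chr12:54016888-54056030 (HOXC4) on the plus strand. HOXB4, which also passed, overlaps HOXB3. With the low genes set aside, 27 members were left for comparisons of ethanol and ATRA, and 28 where the libraries with no vehicle took part.

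**Figure D1:**
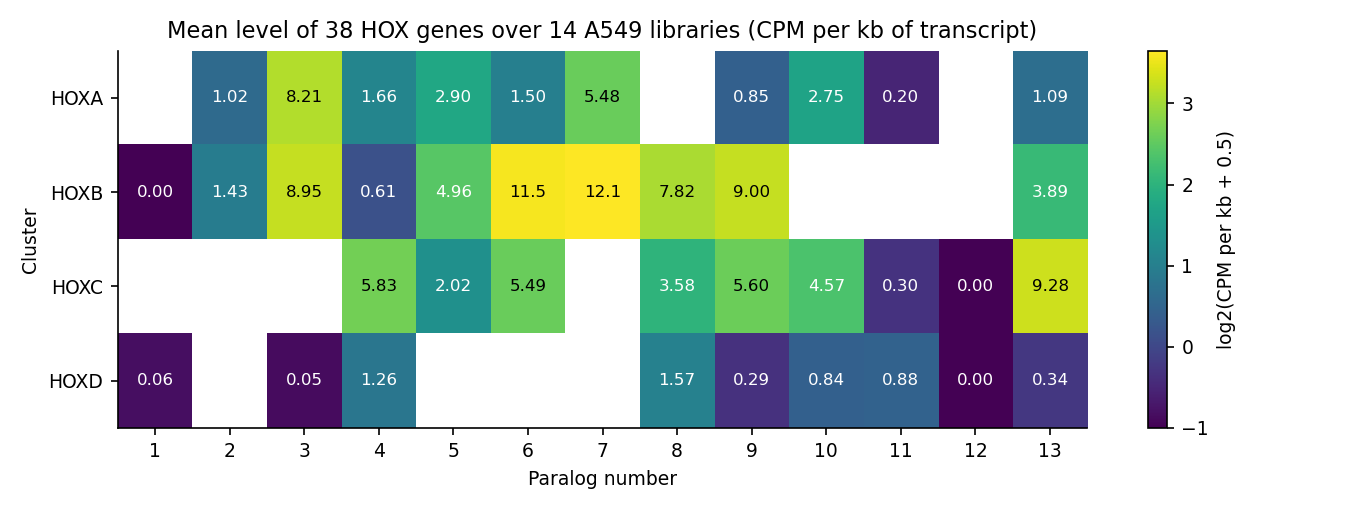
Mean level of 38 HOX genes over the 14 libraries in CPM per kb of transcript, with clusters in rows and paralog numbers in columns. Color gives log2(CPM per kb + 0.5), blank cells hold no gene or one not shown, and HOXB7 (12.1) and HOXB6 (11.5) are the highest.

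Summed over members, HOXC stood at 47.0 to 66.4 CPM in the 7 normoxia libraries and at 74.9 to 118 CPM in the 7 hyperoxia libraries, with no overlap. HOXB stood at 106 to 133 CPM in the 4 normoxia libraries without ATRA, at 184 to 202 CPM in the 3 normoxia libraries with ATRA and at 97.4 to 126 CPM in hyperoxia. The ATRA libraries in normoxia were thus apart from all others for HOXB. HOXA stood at 43.98 to 58.0 CPM in normoxia without ATRA, at 73.9 to 91.8 CPM in normoxia with ATRA and at 62.8 to 95.9 CPM in hyperoxia. HOXD ranged from 5.79 to 19.0 CPM over all libraries. The sums are descriptions that give most weight to the strongest members.

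**Figure D2:**
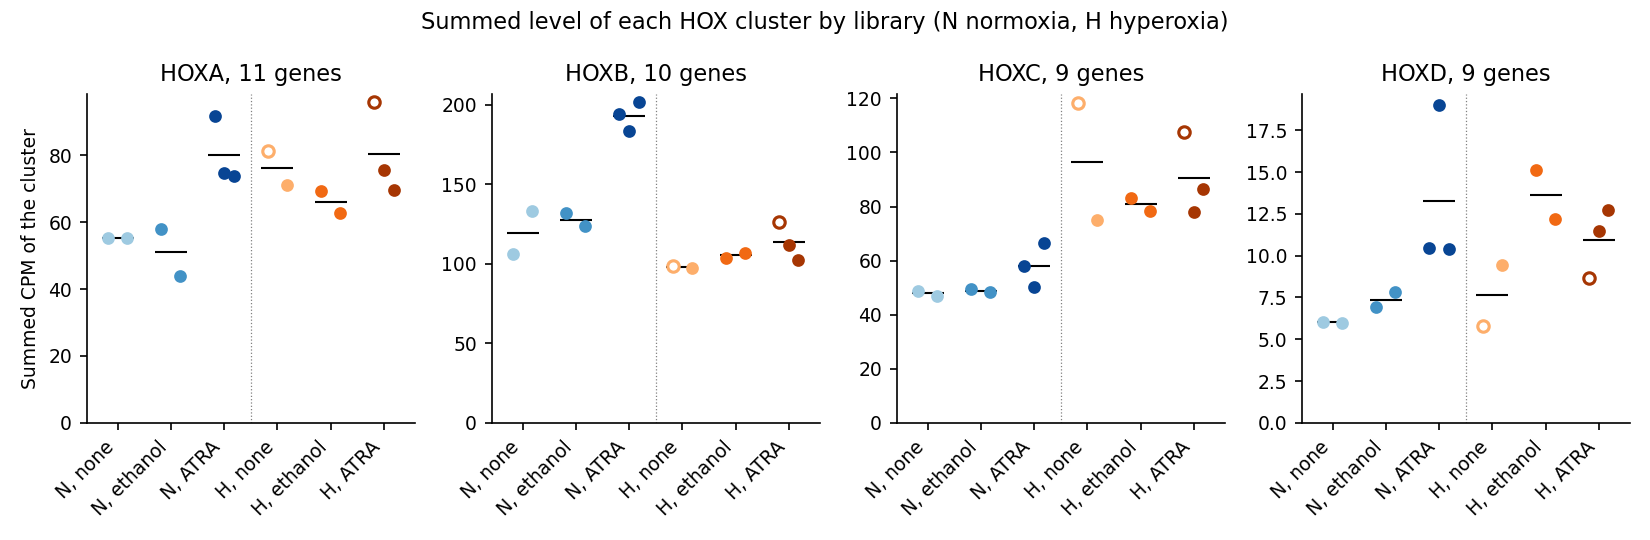
Summed CPM of each cluster by library, where points are libraries (N normoxia, H hyperoxia, none is no vehicle), lines are group means, and open points are the 2 libraries with high median counts. HOXC lies higher in all hyperoxia libraries (74.9 to 118) than in all normoxia libraries (47.0 to 66.4).

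Hyperoxia against normoxia was first tested over all 3 pretreatments, 7 libraries against 7. HOXC4, HOXC8, HOXC13 and HOXA7 rose, and HOXB4 and HOXB6 fell, so 6 of 28 members passed (21.4%), where 31.1% of all 15339 genes tested did. The count moved in both directions when 1 library was left out. It rose most without the second hyperoxia library with no vehicle, which left 1 library in that group. By cluster, 3 of 7 HOXC genes rose and none fell, with all 7 log2 fold changes positive and a median of 0.89. Of all genes 15.5% rose and 15.5% fell. In HOXB, 2 of 9 genes fell and none rose, with 8 of 9 log2 fold changes negative and a median of -0.62. HOXA had 1 of 10 higher, with a median of 0.14, and HOXD had 0 of 2 called. The median over all genes was -0.03. DESeq2 and RLE size factors, which refit the same counts of the same libraries, gave the same cluster directions. With no filter, and without both libraries of high median counts, 8 HOXC genes were tested, with 7 positive and 1 negative. In an additive model HOXD had 1 positive and 1 negative value. Without the second hyperoxia library with no vehicle HOXC9 turned to -2.15 (adjusted p = 0.00679), since that group was then the first library, where HOXC9 had 0 counts. By position, 2 of 9 genes of paralogs 1 to 4, 3 of 11 of paralogs 5 to 8 and 1 of 8 of paralogs 9 to 13 were called.

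**Figure D3:**
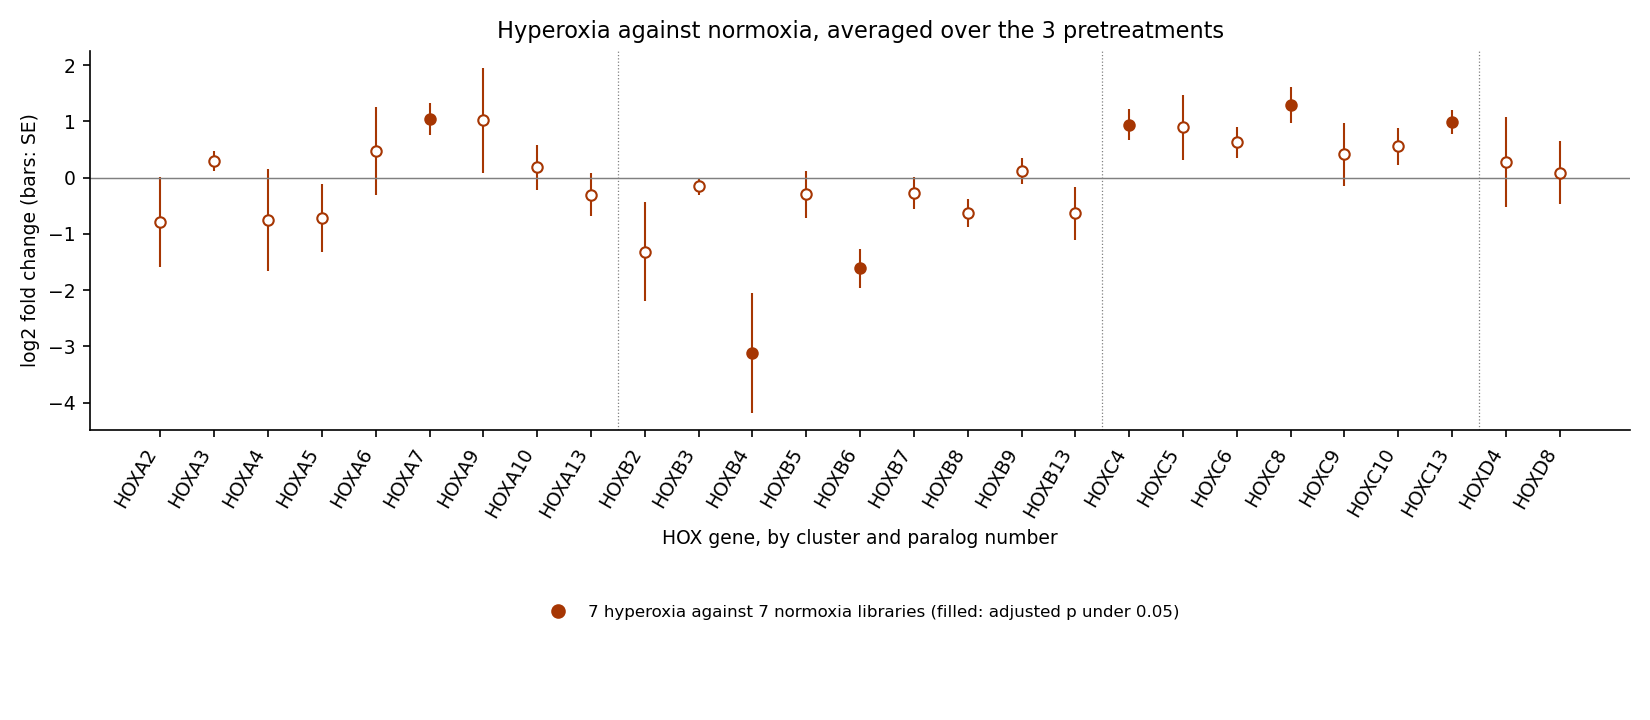
log2 fold change of 27 HOX genes in hyperoxia against normoxia averaged over the 3 pretreatments, with bars of 1 SE and filled points where the adjusted p was under 0.05. All 7 HOXC genes lie above 0 and 8 of 9 HOXB genes lie below it.

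HOXB6, a trunk patterning gene also active in blood progenitors, was at 20.3 and 28.1 CPM in normoxia with no vehicle, at 29.9 and 21.8 CPM with ethanol and at 34.4, 34.0 and 33.1 CPM with ATRA. In hyperoxia it was at 0.999 and 12.1 CPM with no vehicle, at 7.42 and 13.2 CPM with ethanol and at 14.6, 8.04 and 10.9 CPM with ATRA. Every hyperoxia library was below every normoxia library. Its log2 fold change was -1.62 (SE 0.35, adjusted p = 0.00225), and it was -1.28 without the first hyperoxia library with no vehicle (adjusted p = 2.56e-05) and -1.36 without both libraries of high median counts (adjusted p = 4.49e-06). HOXB6 was the only member whose libraries fell without overlap, and HOXA7 the only one that rose so, in a table where 13.7% of all genes did not overlap in either direction. The antisense gene HOXB-AS3, which overlaps HOXB6 and HOXB5 and held 88.5% as many counts as HOXB6, also fell, with a log2 fold change of -0.98 (SE 0.24, adjusted p = 0.0055). Of the HOXB6 transcript, 18.2% lies opposite antisense transcripts and 29.4% overlaps any other transcript. In the opposite part, RNA of HOXB-AS3 and of HOXB6 cannot be told apart. In the first hyperoxia library with no vehicle HOXB6 had 5 counts and HOXB-AS3 80.

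HOXB8, the neighbor of HOXB7 in the cluster and a gene known from myeloid leukemia, was at 13.8 and 20.6 CPM in normoxia with no vehicle, at 9.38 and 18.1 CPM with ethanol and at 24.5, 24.97 and 39.6 CPM with ATRA. Its hyperoxia values were 13.8 and 11.4 CPM, at 10.9 and 13.2 CPM and at 17.3, 12.6 and 8.03 CPM in the same order. Among the pretreatments only the ethanol groups overlapped, with the closest values with no vehicle nearly equal, and the averaged log2 fold change was -0.62 (SE 0.25, adjusted p = 0.0697). It passed with DESeq2 (adjusted p = 0.0471), in an additive model (adjusted p = 0.0422) and without both libraries of high median counts (adjusted p = 0.00742). It also passed without the first hyperoxia library with no vehicle (adjusted p = 0.0301). In that last setting HOXB5 (log2 fold change -1.11, adjusted p = 0.011) and HOXC9 (0.76, adjusted p = 0.0455) also passed, and HOXB4 did not (adjusted p = 0.0671). That fit called 8 members, where 34.1% of all genes were called.

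HOXB4, which is known for the expansion of blood stem cells, was at 0.72 to 3.9 CPM in the 7 normoxia libraries and at 0 to 1.15 CPM in hyperoxia, with 4 hyperoxia libraries at 0 counts. No library exceeded 15 counts, and the HOXB4 log2 fold change averaged over pretreatments was -3.12. Its call (adjusted p = 0.0368) rests on these few counts (adjusted p = 0.0482 without both libraries of high median counts), and its fitted fold change depends on them.

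HOXC8, a gene of thoracic identity, was at 8.39 and 7.2 CPM in normoxia with no vehicle, at 7.3 and 5.14 CPM with ethanol and at 3.65, 3.12 and 1.3 CPM with ATRA. In hyperoxia it was at 15.2 and 10.7 CPM, at 16.7 and 12.5 CPM and at 13.7, 6.5 and 9.68 CPM in the same order. Within each pretreatment the hyperoxia libraries were all higher. The log2 fold change was 1.29 (SE 0.32, adjusted p = 0.00611), and 1.10 without both libraries of high median counts (adjusted p = 0.00322).

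HOXC13 was at 9.56 and 10.1 CPM in normoxia with no vehicle, at 14.9 and 13.1 CPM with ethanol and at 19.0, 14.7 and 26.5 CPM with ATRA. The hyperoxia libraries were at 41.1 and 19.2 CPM, at 21.7 and 25.1 CPM and at 32.8, 30.2 and 28.1 CPM in the same order. The groups were apart within each pretreatment. The log2 fold change was 0.99 (SE 0.21, adjusted p = 0.00185), and 0.77 without the first hyperoxia library with no vehicle, which held the highest value, and 0.75 without both libraries of high median counts (adjusted p = 0.00194). HOXC13-AS, on the opposite strand and with 22.9% as many counts, also rose (1.40, SE 0.49, adjusted p = 0.0409), a call lost without the first hyperoxia library with ATRA (adjusted p = 0.0612).

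HOXC4 shares its annotated gene start with HOXC5 and HOXC6, and the window printed above with HOXC5. In normoxia HOXC4 was at 8.97 and 7.68 CPM with no vehicle, at 4.17 and 6.38 CPM with ethanol and at 7.04, 8.43 and 5.73 CPM with ATRA. In hyperoxia it was at 12.8 and 13.03 CPM, at 15.4 and 12.5 CPM and at 17.8, 8.8 and 10.6 CPM in the same order. The lowest hyperoxia library lay just below the highest normoxia library. The log2 fold change was 0.94 (SE 0.28, adjusted p = 0.0163), and 0.82 without both libraries of high median counts (adjusted p = 0.00936). Those of HOXC5 (0.89, SE 0.59, adjusted p = 0.277) and HOXC6 (0.63, SE 0.28, adjusted p = 0.105), which lie in its span, did not pass.

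HOXA7, a trunk gene, was at 5.85 and 5.04 CPM in normoxia with no vehicle, at 10.1 and 6.03 CPM with ethanol and at 10.7, 6.87 and 6.77 CPM with ATRA. Under hyperoxia it reached 24.97 and 11.1 CPM, at 12.7 and 10.8 CPM and at 12.3, 18.7 and 12.7 CPM in the same order. All hyperoxia libraries were above all normoxia libraries, by a narrow margin at the closest pair. The log2 fold change was 1.04 (SE 0.29, adjusted p = 0.0112), and 0.80 without the first hyperoxia library with no vehicle (adjusted p = 0.0173) and 0.84 without both libraries of high median counts (adjusted p = 0.00979). HOXA-AS3, opposite HOXA7, held 120% as many counts as HOXA7 and was not called in this comparison. Its raw counts in normoxia were 72 and 33 with no vehicle, 32 and 45 with ethanol and 62, 28 and 56 with ATRA. In hyperoxia they were 2 and 70, 72 and 75, and 79, 54 and 92 in the same order. The 2 counts were in the first hyperoxia library with no vehicle, where HOXA7 had 125. The part of HOXA-AS3 RNA in the HOXA7 counts was not tested.

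HOXD8, the leading HOXD gene, did not pass. It was at 3.12 and 1.44, 3.13 and 3.55, and 6.0, 9.67 and 2.6 CPM in normoxia with no vehicle, ethanol and ATRA. In hyperoxia it was at 1.6 and 4.23, 8.48 and 5.12, and 1.44, 0.765 and 6.37 CPM. The conditions overlapped widely, with a log2 fold change of 0.09 (SE 0.55, adjusted p = 0.925).

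**Figure D4:**
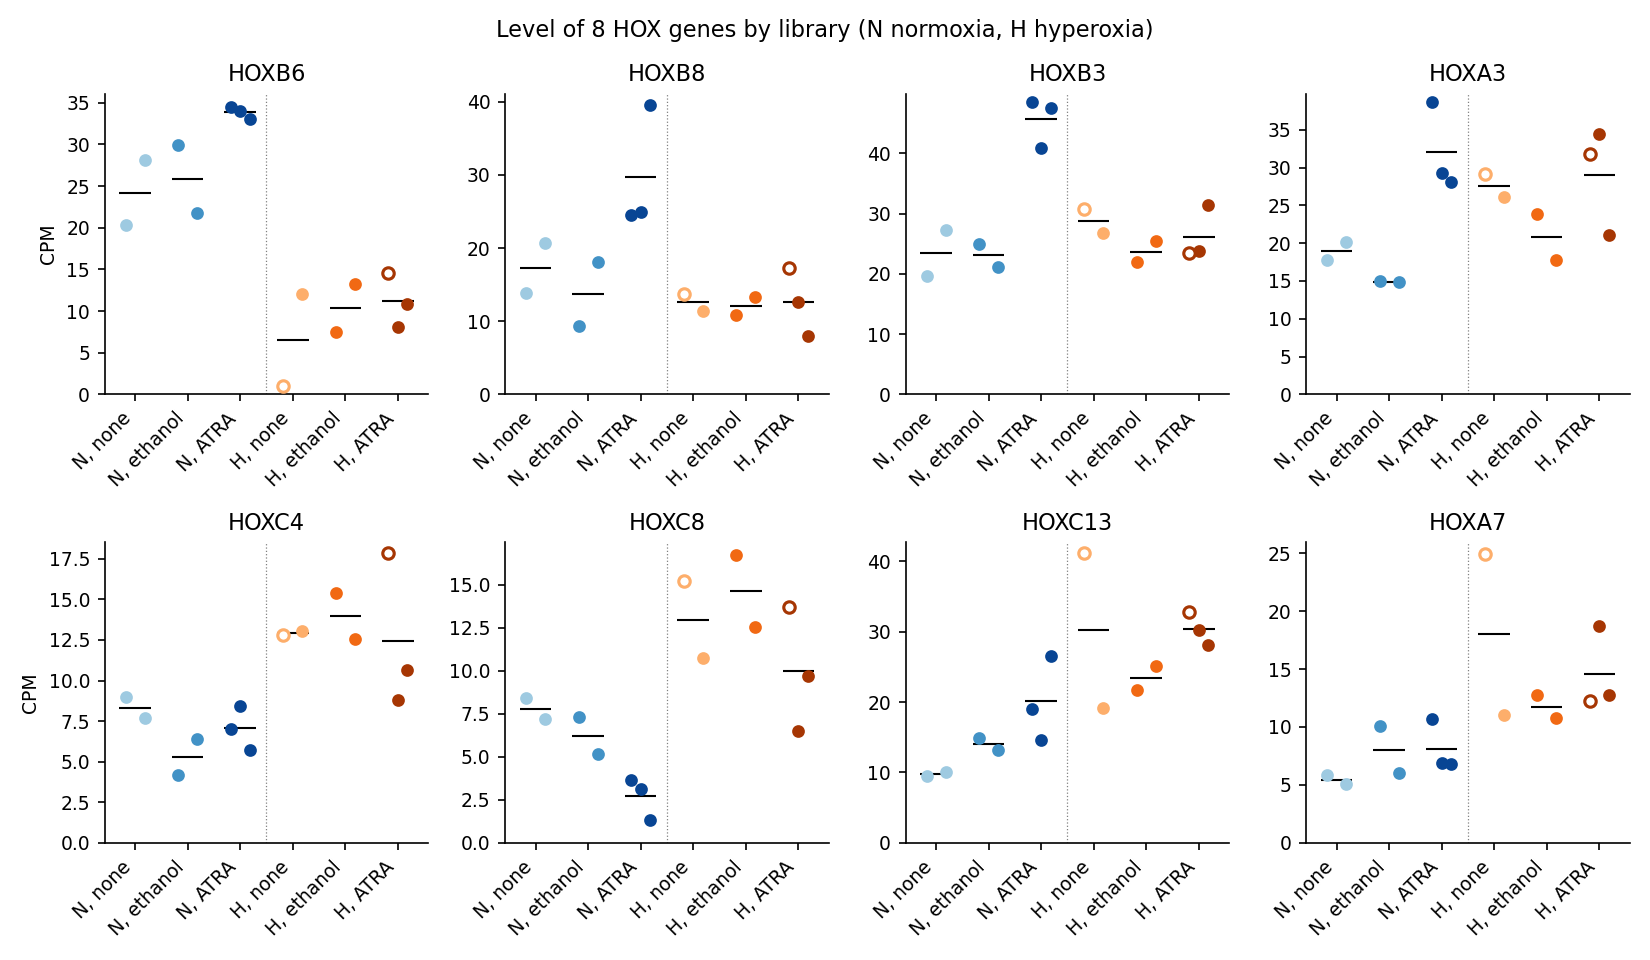
CPM of 8 HOX genes by library, where points are libraries (N normoxia, H hyperoxia), lines are group means, and open points are the 2 libraries with high median counts. HOXB6 is below 15 CPM in all hyperoxia libraries and above 20 CPM in all normoxia libraries, and HOXB3 exceeds 40 CPM only in normoxia with ATRA.

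Within pretreatments the comparisons use parts of the same libraries and are not independent of the average. With ethanol, 2 of 27 members passed, where 17.5% of all 14957 genes did. HOXB6 fell (log2 fold change -1.28, SE 0.34, adjusted p = 0.0104) and HOXC4 rose (1.36, SE 0.47, adjusted p = 0.0479). HOXB5, a gene of lung and foregut development, was at 10.8 and 9.93 CPM in normoxia and at 3.45 and 4.41 CPM in hyperoxia but missed the threshold (-1.37, SE 0.51, adjusted p = 0.0721). The HOXC4 call was lost in 7 of 10 fits that left out 1 library (any of the 4 ethanol libraries, the first or the third normoxia library with ATRA or the third of those in hyperoxia with ATRA), with log2 fold changes of 1.09 to 1.71. The HOXB6 call was lost without the first ethanol library of hyperoxia or of normoxia.

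With ATRA, 4 of 27 members passed (14.8%), where 22.7% of all genes did. HOXB3, HOXB6 and HOXB8 fell and HOXC8 rose, and all 9 HOXB genes tested had negative and all 7 HOXC genes positive log2 fold changes. The other pretreatments were mixed. With ethanol 6 of 9 HOXB genes were negative and 5 of 7 HOXC genes positive. With no vehicle 6 of 9 HOXB genes were negative and 6 of 7 HOXC genes positive. HOXB6 changed by -1.56 (SE 0.28, adjusted p = 0.000266), HOXB8 by -1.22 (SE 0.32, adjusted p = 0.00797) and HOXC8 by 1.91 (SE 0.47, adjusted p = 0.00534). HOXB3, which patterns the hindbrain and pharyngeal arches, was at 48.5, 40.9 and 47.6 CPM in normoxia with ATRA and at 23.4, 23.7 and 31.4 CPM in hyperoxia with ATRA. The groups were apart, with a log2 fold change of -0.80 (SE 0.20, adjusted p = 0.00611). Mean HOXB3 was not lower in hyperoxia in the other pretreatments. It was at 23.1 CPM in normoxia and 23.7 CPM in hyperoxia with ethanol. With no vehicle it was at 23.5 CPM in normoxia and 28.7 CPM in hyperoxia. The normoxia libraries with ATRA also enter the comparison with ethanol below, so the HOXB changes in both are not separate observations. The calls of HOXB3, HOXB6 and HOXC8 held in all 10 fits that left out 1 library, and that of HOXB8 was lost without the third normoxia library with ATRA (adjusted p = 0.0603).

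With no vehicle, 2 of 28 members passed, where 15.2% of all genes did. HOXB6 missed the threshold (-1.97, SE 0.67, adjusted p = 0.0591) but passed with DESeq2 (adjusted p = 0.0204) and with no filter on low counts (adjusted p = 0.00147). HOXA7 rose by a log2 fold change of 1.73 (SE 0.53, adjusted p = 0.0388) and HOXC13 by 1.63 (SE 0.39, adjusted p = 0.0107). Without the first hyperoxia library with no vehicle, 0 members passed, with HOXA7 at 1.01 (adjusted p = 0.275) and HOXC13 at 0.96 (adjusted p = 0.121). Without the second library of that group more members passed, since the group was then the first library alone. In the first library HOXB13 and HOXC9 had 0 counts while HOXC13 had 206. Over the 14 fits that left out 1 library, the HOXA7 call held in 4 and the HOXC13 call in 11, and both were also lost without either normoxia library with no vehicle.

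ATRA against ethanol asked whether the retinoid moved HOX genes at each oxygen level. The retinoid response itself was present: 6 of 8 retinoid response genes rose in normoxia and 5 of 8 in hyperoxia, with CYP26B1, a retinoic acid degrading enzyme, up by a log2 fold change of 3.70 (SE 0.28, adjusted p = 7.38e-08) in normoxia and 4.13 (SE 0.29, adjusted p = 2.54e-08) in hyperoxia. In normoxia 1 of 27 HOX genes passed (3.7%), where 1.25% of all genes did. HOXB3 rose from 25.02 and 21.1 CPM with ethanol to 48.5, 40.9 and 47.6 CPM with ATRA. The groups did not overlap, and the log2 fold change was 1.00 (SE 0.23, adjusted p = 0.0318). The libraries with no vehicle, not part of this test, were at 19.7 and 27.3 CPM. The call was lost in 6 of 10 fits that left out 1 library (any of the 4 ethanol libraries or the first or the third normoxia library with ATRA), where the log2 fold change stayed at 0.87 to 1.11.

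HOXA3, the HOXA paralog of HOXB3 and a gene of thymus and parathyroid development, was at 14.9 and 14.9 CPM with ethanol in normoxia and at 38.6, 29.3 and 28.1 CPM with ATRA. The groups were apart, but the log2 fold change of 1.10 (SE 0.28) missed the threshold (adjusted p = 0.0591), and it passed with DESeq2 (adjusted p = 0.0229). In hyperoxia HOXA3 was at 23.9 and 17.8 CPM with ethanol and at 31.7, 34.4 and 21.0 CPM with ATRA, which overlapped. With no vehicle it was at 17.7 and 20.1 CPM in normoxia and at 29.2 and 26.1 CPM in hyperoxia. Averaged over oxygen, HOXA3 rose with ATRA by 0.79 (SE 0.20, adjusted p = 0.0229), the 1 member of 27 that passed, where 3.38% of all genes did. HOXB3 was at 0.57 in that average (SE 0.16, adjusted p = 0.0598). The HOXA3 call was lost in 6 of 10 fits that left out 1 library (any of the 4 ethanol libraries, the first normoxia library with ATRA or the second of hyperoxia with ATRA), with log2 fold changes of 0.68 to 0.89. HOXA3 overlaps 5 other annotated genes of the cluster, HOXA4, HOXA5, HOXA6, HOXA-AS2 and HOXA-AS3.

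Of the 27 members, 24 had positive log2 fold changes with ATRA in normoxia, with a median of 0.40, where the median over all genes was 0.00. All 9 HOXB genes were positive and 12 of 27 members had all ATRA libraries above both ethanol libraries, where 13.2% of all genes did. These values share the 2 ethanol libraries, so they are not separate observations. They also share the normoxia libraries with ATRA, which were the normoxia side of the oxygen comparison with ATRA above. HOXC8 went the other way, at -1.18 (SE 0.53, adjusted p = 0.505), with both groups apart.

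In hyperoxia, edgeR called 0 of 27 members for ATRA against ethanol, where 2.21% of all genes were called. At an unadjusted p under 0.05 there were 2, against 13.5% of all genes, and DESeq2 called 0. The median log2 fold change was 0.14. HOXB3 was at 22.001 and 25.4 CPM with ethanol and at 23.4, 23.7 and 31.4 CPM with ATRA, with a log2 fold change of 0.14 (SE 0.23, adjusted p = 0.857). The difference between the ATRA effects in hyperoxia and in normoxia was tested directly. It passed for 0 of 27 members with edgeR and with DESeq2, where 0.14% of all genes passed, and 2 had an unadjusted p under 0.05, against 7.21% of all genes. HOXB3 differed by -0.86 on the log2 scale (SE 0.32, adjusted p = 0.531), so its larger response in normoxia was not shown to differ from that in hyperoxia.

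**Figure D5:**
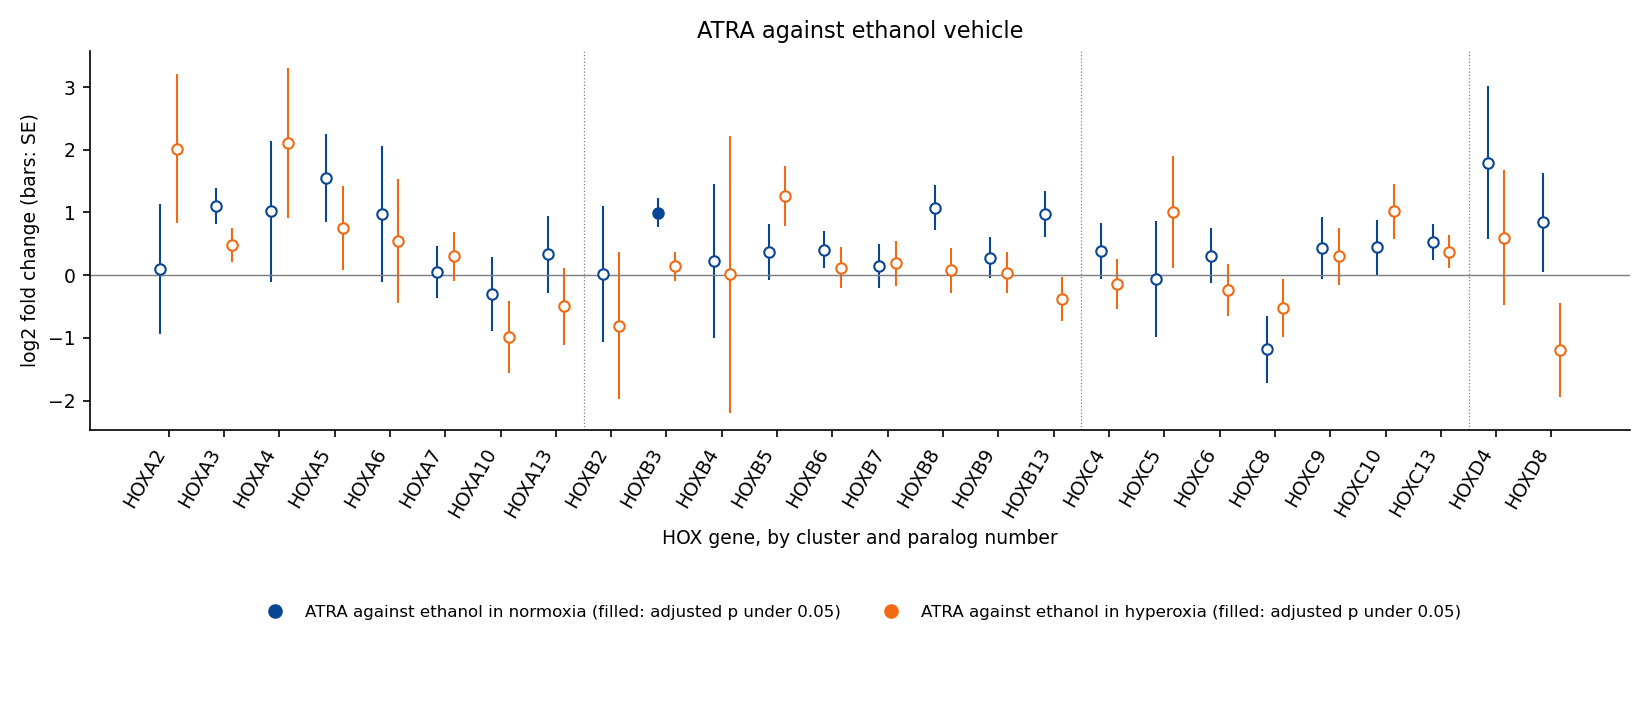
log2 fold change of 26 HOX genes with ATRA against ethanol in normoxia and in hyperoxia, with bars of 1 SE and filled points where the adjusted p was under 0.05. HOXB3 in normoxia (1.00) is the one filled point.

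Of 16 chromatin regulators of HOX clusters, 2 rose and 4 fell in hyperoxia averaged over pretreatments, where 31.1% of all genes were called. EZH2, the Polycomb methyltransferase, fell by -1.31 (SE 0.28, adjusted p = 0.00215), and CBX2, a reader of its mark, by -1.13 (SE 0.17, adjusted p = 0.000115). SUZ12 (-0.67) and ASXL1 (-0.78) also fell, while BMI1 (0.61) and the demethylase KDM6B (0.74) rose. With ATRA, 0 of the 16 passed with edgeR in either oxygen level. Of the caudal genes, which act upstream of HOX genes in the embryo, CDX1 and CDX4 had 0 counts and CDX2 was not called. Among the noncoding and read-through genes of the clusters, 10 of 19 in the tables could be tested in the same comparison, and HOXB-AS3 fell while HOXC13-AS and HOXA10-HOXA9 rose. The HOXA10-HOXA9 value (3.15, SE 1.11, adjusted p = 0.0428) rests on 65 and 19 counts in the 2 libraries with high median counts, against 6 or fewer in the other 12. Without the first hyperoxia library with no vehicle it was 1.73 (adjusted p = 0.309), and without the other it was too low to test.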

How the data were processed

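RNA was sequenced from directional libraries of A549 cells. Per the labels and the methods of the study, the authors used Trimmomatic 0.38 for trimming, HISAT2 for alignment to the hg38 genome, and HTSeq for counting. The deposited values are raw counts per gene, and the annotation release and strand setting are not given in the sources used here. Reads that HTSeq put in no gene (48.6% to 55.3% of the reads it listed) were left out of library sizes. Groups came from the labels, and 1 of 15 libraries entered no comparison, since its title says hyperoxia and its treatment label says adipogenic differentiation.

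The quasi-likelihood test of edgeR 4.0.16 in R 4.3.3 was run on all genes kept by filterByExpr (minimum count 10, minimum total 15), with TMM scaling and Benjamini-Hochberg adjusted p under 0.05. Comparisons of ethanol and ATRA used 10 libraries in 4 groups, and those with no vehicle or averaged over pretreatments used 14 libraries in 6 groups. The scripts were tested on simulated counts. CPM used the TMM factors of the 14 libraries, and lengths were those of MANE Select transcripts. Alternatives were DESeq2 1.42.0, RLE size factors, no filter, other sets of libraries and leaving out each library. Antisense genes in the strand check had at least 300 bases, 80% of them inside an oppositely placed coding gene (or MALAT1) with over 2000 counts. Members with a call in any comparison and the member with the highest mean CPM of each cluster were given by library, apart from HOXB4, which was given by range. The members and gene lists were chosen with earlier results of these data known. Some genes are not reported here by name, though the counts over all members include every member tested.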

Additional observations from a re-analysis of the deposited data

Results flagged for a closer look

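HOXB13, a prostate and tail-end gene, was picked from all members. Its hyperoxia libraries lay apart from those of normoxia in opposite directions with ethanol and with ATRA. Neither oxygen difference was called, and the share of all genes with this pattern was not computed. With ethanol it was at 7.99 and 9.93 CPM in normoxia and at 16.7 and 11.3 CPM in hyperoxia, and with ATRA it was at 20.1, 18.7 and 14.8 CPM in normoxia and at 7.21, 14.2 and 11.3 CPM in hyperoxia. With no vehicle it was at 10.9 and 14.4 CPM in normoxia and at 0 and 7.82 CPM in hyperoxia. The difference between the oxygen effects with ATRA and with ethanol was -1.36 on the log2 scale (SE 0.51, adjusted p = 0.531), which did not pass.

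In the library whose labels contradict each other, HOXB13 was at 17 CPM (75 counts) and HOXB7 at 20.2 CPM (89 counts) without TMM scaling. The 8 libraries with ethanol or no vehicle reached at most 16.5 and 18.3 CPM for these genes on that scale. Both genes were picked from all 39 members by that excess, and the share of all genes above such a range was not computed. HOXC10 was below the 8 libraries, at 3.85 CPM against 4.16 CPM at the lowest. Libraries with ATRA reached 20.1 CPM for HOXB13 and 29.5 CPM for HOXB7 with TMM scaling.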

How the results depend on the processing

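No member called with the main settings changed sign in that comparison under any alternative. HOXC9, not called with the main settings, was 0.76 (adjusted p = 0.0455) without the first and -2.15 (adjusted p = 0.00679) without the second hyperoxia library with no vehicle. Called members in the ethanol oxygen comparison went from 2 to 1 with RLE size factors, 1 with no filter, 5 with only the groups compared and 0 with all 14 libraries, and to 0 to 3 when 1 library was left out. For ATRA in normoxia, 1 became 2 with DESeq2, no filter or only the groups compared (HOXA3 joining HOXB3), 0 with all 14 libraries, and 0 to 2 when 1 library was left out. For ATRA averaged over oxygen, 1 became 2 with DESeq2 (HOXB3 joining HOXA3), 0 with all 14 libraries, and 0 to 2 when 1 library was left out. With no vehicle, 2 became 3 with DESeq2 and 0 with only the groups compared, and the count moved in both directions when 1 library was left out. The averaged oxygen comparison gave 4 to 16 when 1 library was left out, with 16 without the second hyperoxia library with no vehicle, and 8 without both libraries of high median counts, a setting chosen after seeing the data. The oxygen comparison with ATRA gave 4 to 5, and ATRA in hyperoxia and the interaction gave 0 in every setting. HOXB6, HOXC8 and HOXC13 passed in the averaged oxygen comparison in all 14 fits that left out 1 library and all 5 alternatives, whereas HOXC4 was lost in 4 of 14, HOXB4 in 6 of 13 and HOXA7 in 1 of 14. Among the alternatives HOXC4 was lost with no filter and HOXB4 in the additive model, while HOXA7 passed in all 5. Where a group was left with 1 library, that library was assumed to vary like the others. The counts of members called in this section are given without the share of all genes called in the same fit. They describe the stability of the calls and not HOX genes as a set. HOXB6 in the oxygen comparison with ATRA was lost with all 14 libraries (adjusted p = 0.0575). The causes were not tested. No paired analysis was possible because the labels carry no replicate numbers. Depth limited members near 3 counts.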

Other observations

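In the library that entered no comparison, titled hyperoxia but with adipogenic differentiation as its treatment label, the clusters summed to 58.4 CPM for HOXA, 116 CPM for HOXB, 71.8 CPM for HOXC and 12.2 CPM for HOXD without TMM scaling. On that scale the 4 normoxia libraries with ethanol or no vehicle held 45.5 to 58.7, 103 to 134, 46.9 to 50.1 and 5.86 to 8.07 CPM, and the 4 hyperoxia libraries held 64.5 to 82.9, 92.4 to 110, 71.1 to 121 and 5.91 to 14.9 CPM.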
